A study of Homo sapiens with 57 samples.

Results

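Gusuibu, the rhizome of the fern Drynaria fortunei, is 1 of the 3 herbs of the Wenshenyang recipe, a prescription given for infertility. Here its extract was compared with the vehicle in HK-2 cells, a human proximal tubule line immortalised with papillomavirus genes. The members were chosen by their labels: the 3 wells with Gusuibu at 100 μg/mL and the 16 wells with 0.5% DMSO of the same set, which makes 19 of the 57 wells of the study. All these wells held 3000 cells, and all treatments lasted 24 h. The other wells belong to Roucongrong and Yinyanghuo, each with 3 treated wells and 16 DMSO wells of its own. The extract was made with ethanol and freeze-dried, and no compound of it was given on its own.

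The assay was RASL-seq: probe pairs that anneal side by side on an mRNA are joined by a ligase, amplified and counted. The panel held 412 genes, taken by the study from pathways of hormone, growth factor and cytokine signalling. Of these, 402 had at least 1 count in the 19 wells and were tested, and 218 had a mean count of 5 or more and are described here. The other 184 tested genes were too low for values of their own. Total counts were 18177, 36206 and 46019 in Gusuibu wells 1, 2 and 3 and 21006 to 48769 (median 38086.5) in the DMSO wells. Nothing in the labels says that the wells came from separate cultures, so the p-values measure only the spread between wells.

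The panel was drawn from signalling pathways, and its genes act in many parts of the cell. Cadherins join neighbouring cells, integrins and syndecans fasten the cell to the matrix, and RHOA and actin carry the tension between them. Growth factors such as epiregulin and VEGF act through receptor tyrosine kinases, and STAT proteins take the signals of cytokines from the membrane to the nucleus. Proximal tubule cells in culture often carry N-cadherin and vimentin.

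The label was checked against markers. All 7 panel genes of a list for cultured tubular epithelium, among them CDH2, VIM and FN1, had a mean count of 5 or more. Their summed level was 104789 to 120363 CPM with Gusuibu and 94306 to 124069 CPM with DMSO. CPM are counts scaled to a common total. The marker sums of this paragraph were scaled by the total count alone. The CPM of later paragraphs also use the TMM factors, except for the floor of 3 counts. Only 1 of the 13 markers of the differentiated proximal tubule was on the panel, HNF4A, which had 0 to 3 counts per well. Markers of other cells were few on the panel, with 1 of 7 for fibroblasts and smooth muscle, 2 of 8 for endothelium and 6 of 12 for leukocytes. They cannot exclude such cells. COL1A2 (fibroblasts) and CD86 (leukocytes) were at 0 in all 19 wells and CDH5 (endothelium) had 0 to 6 counts. ITGB2 was the only leukocyte marker with a mean count of 5 or more, with 2 to 19 counts per well. The summed level of the 6 leukocyte markers was 165 to 469.5 CPM with Gusuibu and 235 to 789 CPM with DMSO. The endothelial sum was 326 to 1132 CPM against 43.9 to 955 CPM. It is the sum of CDH5 and KDR, and KDR is described with the genes of the second well.

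After Gusuibu, 14 genes fell and 7 rose at an adjusted p under 0.05 (edgeR quasi-likelihood test with TMM normalization). These 21 genes are 5.22% of the 402 tested, and as all of them had a mean count of 5 or more, 9.63% of the 218 (6.42% lower and 3.21% higher). Among the genes that fell were CDH2, RHOA, HSPB1, SUMO3 and STAT3, and the 14 had log2 fold changes from -0.89 to -0.36. The genes that rose had log2 fold changes from 0.47 to 1.40 and included the growth factors EREG and VEGFA and the proteoglycan VCAN. The study's own criteria, a fold change above 1.5 or below 0.67 and an unadjusted p under 0.05, were also applied to the edgeR test. With them 22 of the 218 genes (10.1%) passed, of which 16 had higher and 6 lower levels, and 8 genes met both rules. Over all 402 genes these criteria called 38 (9.45%), 31 higher and 7 lower. With DESeq2 they called 21, of which 18 were higher and 3 lower (STAT3, GADD45A and ARNT). With RLE normalization or the total count the same 3 genes were the lower calls. The study applied its criteria with DESeq and lists 22 genes for Gusuibu over its whole panel, with these 3 as the lower ones. That list is not the same set as the 22 of the 218 genes above. The median log2 fold change was -0.01 over the 218 genes and 0.04 over the 402.

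**Figure D1:**
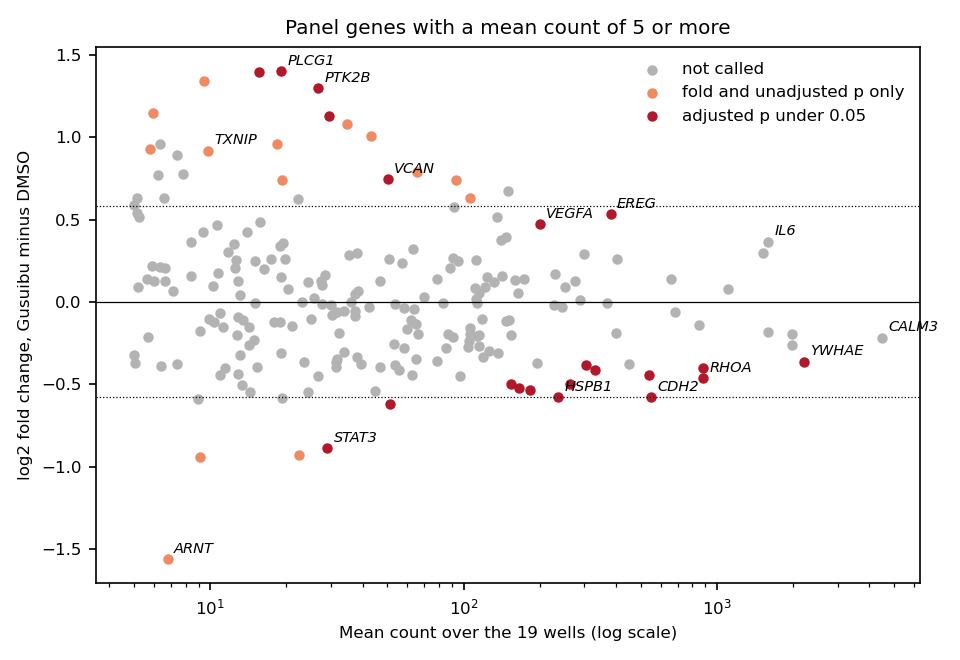
Log2 fold change of Gusuibu against DMSO (vertical axis) by mean count over the 19 wells (horizontal axis, log scale) for the 218 genes with a mean count of 5 or more; each point is a gene, dotted lines mark the fold changes of 1.5 and 0.67, and colours mark the calls. CDH2, RHOA and YWHAE fell at high counts by less than or close to the dotted line, whereas STAT3, at a low count, and ARNT, at a lower one, lie well past it. PLCG1 and PTK2B rose at low counts, and EREG and VEGFA at higher ones.

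The split of the 21 calls depended on the scaling. With no normalization beyond the total count, 9 genes rose and 8 fell, and with RLE normalization 9 rose and 12 fell. The median log2 fold change of all genes tested was 0.08 higher with the total count and 0.06 higher with RLE, and each of the 21 genes kept its direction with both and with DESeq2. Leaving out Gusuibu well 2 left 0 genes at an adjusted p under 0.05 with edgeR, with 47 genes at an unadjusted p under 0.05, and 8 genes with DESeq2. Without well 1 the adjusted calls were 11, and without well 3 they were 17. All 21 genes kept their direction without any 1 of the treated wells. In a fit with the wells of all 3 sets, only CDH2 and RHOA kept an adjusted p under 0.05.

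In 6 genes, 2.75% of the 218, the 3 Gusuibu wells and the 16 DMSO wells did not overlap: CDH2, HSPB1, SDC2, SUMO3 and STAT3 were lower and VCAN was higher. The sequence before the start of 4 of them is shown so that these promoters can be compared with one another. Each is the 250 bases upstream of the start in RefSeq (GRCh38.p14), 5′ to 3′ on the strand of the gene, with motif matches in capitals. HSPB1 lies at chr7:76302423-76302672 on the plus strand, STAT3 at chr17:42388443-42388692 on the minus strand, SUMO3 at chr21:44818063-44818312 on the minus strand and VCAN at chr5:83471494-83471743 on the plus strand.
HSPB1: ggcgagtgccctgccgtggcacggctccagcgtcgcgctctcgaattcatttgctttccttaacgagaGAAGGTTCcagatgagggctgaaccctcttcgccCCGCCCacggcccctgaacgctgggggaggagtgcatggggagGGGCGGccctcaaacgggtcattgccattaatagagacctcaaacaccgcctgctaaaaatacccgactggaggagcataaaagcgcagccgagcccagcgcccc
STAT3: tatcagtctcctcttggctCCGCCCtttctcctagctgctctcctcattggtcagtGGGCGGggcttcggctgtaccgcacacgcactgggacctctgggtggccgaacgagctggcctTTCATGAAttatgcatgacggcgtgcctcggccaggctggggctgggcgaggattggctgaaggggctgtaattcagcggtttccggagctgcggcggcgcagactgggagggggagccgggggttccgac
SUMO3: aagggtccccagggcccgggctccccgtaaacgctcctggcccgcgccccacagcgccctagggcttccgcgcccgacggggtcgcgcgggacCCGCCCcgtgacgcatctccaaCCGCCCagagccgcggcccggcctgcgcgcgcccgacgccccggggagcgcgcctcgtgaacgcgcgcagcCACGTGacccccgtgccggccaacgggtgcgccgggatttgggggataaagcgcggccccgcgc
VCAN: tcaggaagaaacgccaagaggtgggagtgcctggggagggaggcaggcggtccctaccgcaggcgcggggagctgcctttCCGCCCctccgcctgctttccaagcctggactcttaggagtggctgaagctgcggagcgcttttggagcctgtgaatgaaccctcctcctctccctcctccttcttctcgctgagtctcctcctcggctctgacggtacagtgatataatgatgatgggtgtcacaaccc

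Both strands were searched for the GC box GGGCGG, the heat shock element in its forms GAANNTTC and TTCNNGAA, the STAT motif TTCNNNGAA, the AP-1 motif TGANTCA, the E-box CACGTG and the TATA box TATAAA. The GC box was found in all 4 promoters, and 42.5% of 34943 RefSeq promoters of this length hold it. HSPB1 held GAANNTTC (5.80% of promoters) 182 to 175 bases before the start. STAT3 held TTCNNGAA (6.62% of promoters) 131 to 124 bases before the start, and SUMO3 held the E-box (6.32% of promoters). The STAT motif (6.56%), the AP-1 motif (6.59%) and the TATA box (10.8%) were in none of these 4 windows. A match describes letters only.

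Among the adhesion genes, CDH2 (Entrez 1000), which encodes N-cadherin, fell in all wells. It had 11312, 9319.9 and 11656 CPM in Gusuibu wells 1, 2 and 3 and 12592 to 18286 CPM (median 16404) with DMSO. Each treated well was below each DMSO well, and the log2 fold change was -0.58 (SE 0.10, edgeR adjusted p = 0.00239). It was -0.64 to -0.48 when each treated well was left out in turn. The exact permutation p was 0.00103 (two-sided), the smallest that the 969 choices of 3 wells allow.

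SDC2 (Entrez 6383), the heparan sulfate proteoglycan syndecan 2, had 10831, 11009.7 and 12530.0 CPM with Gusuibu and 12639 to 18194 CPM (median 15624) with DMSO. The groups did not overlap, though the third well came close to the lowest DMSO well. Its log2 fold change was -0.44 (SE 0.10, edgeR adjusted p = 0.012).

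ITGB1 (Entrez 3688), the integrin beta 1 chain, had 6189, 6043 and 7714 CPM against 7398 to 10101 CPM (median 8657), with the third well above 1 DMSO well. It fell by 0.38 on the log2 scale (SE 0.11, edgeR adjusted p = 0.0282). SPP1 (Entrez 6696), the secreted integrin ligand osteopontin, had 3842, 6273 and 5711 CPM against 5934 to 10238 CPM (median 7642), with the second well above 1 DMSO well. SPP1 fell by 0.50 (SE 0.14, edgeR adjusted p = 0.0298). Both genes were thus below the DMSO median in 3 of 3 wells, with an overlap of a single well.

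The cytoskeletal genes RHOA, VIM and ACTB fell too. RHOA (Entrez 387), a GTPase that drives contraction, had 15687, 16643 and 22929 CPM against 21930.1 to 27579 CPM (median 25661). Its wells 1 and 2 were below all DMSO wells and its well 3 above 2 of them, and the log2 fold change was -0.47 (SE 0.10, edgeR adjusted p = 0.00651). VIM (Entrez 7431), the intermediate filament protein vimentin, had 17181, 17974 and 22482 CPM against 21118 to 28986 CPM (median 25878), a log2 fold change of -0.40 (SE 0.10, edgeR adjusted p = 0.0187). ACTB (Entrez 60), beta-actin, had 2775, 3482 and 4475 CPM against 3533 to 6627 CPM (median 5272), a log2 fold change of -0.53 (SE 0.15, edgeR adjusted p = 0.0298). In RHOA, VIM and ACTB alike the third well was the highest of the treated wells and alone reached the DMSO range.

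A fall was also found for a gene of cytokine signalling. STAT3 (Entrez 6774), which answers cytokines of the IL-6 family, had 373, 461 and 533 CPM against 597 to 1127 CPM (median 873). These are 7, 18 and 25 counts, so the counting error is large, yet no treated well reached the DMSO range. The log2 fold change was -0.89 (SE 0.22, edgeR adjusted p = 0.0187, exact permutation p = 0.00103) and -1.02 to -0.81 with each treated well left out.

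**Figure D2:**
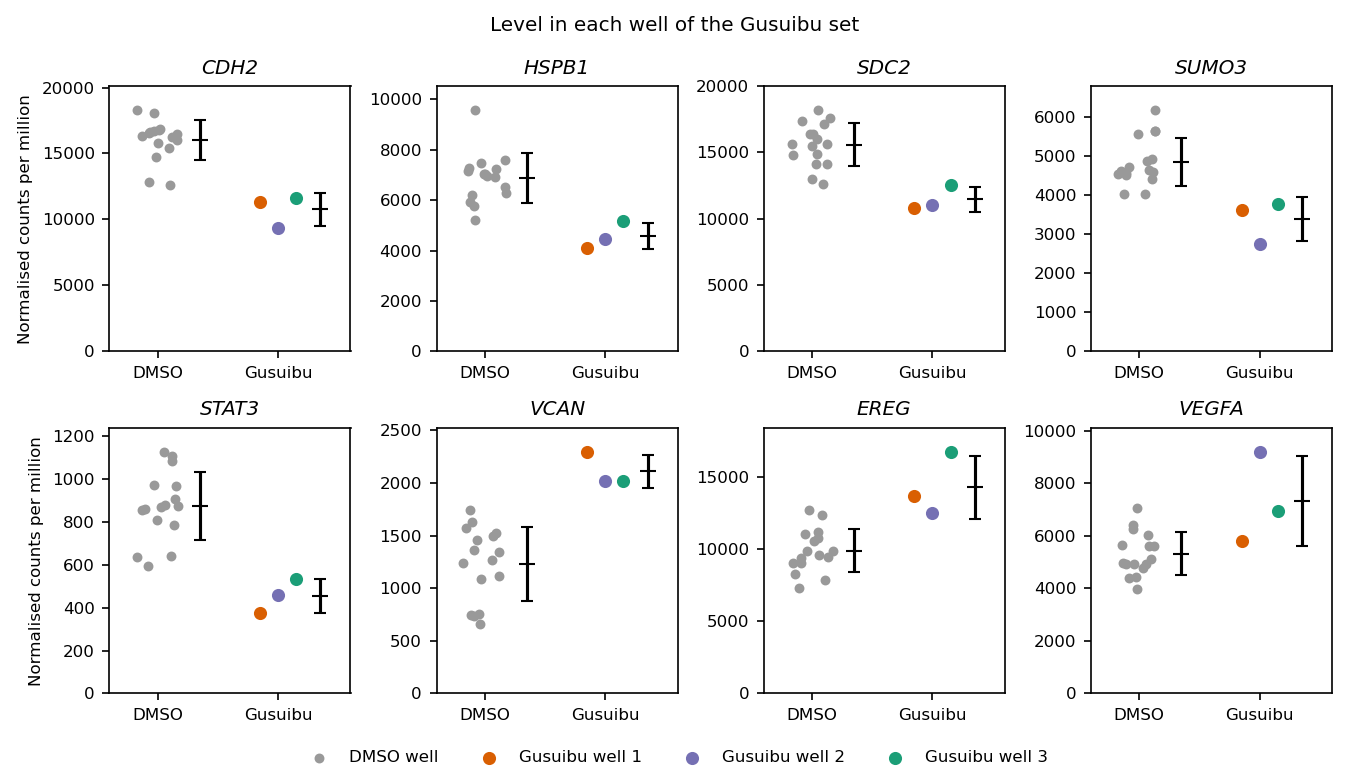
Normalised CPM in each well for the 6 genes with no overlap and for EREG and VEGFA; grey points are the 16 DMSO wells, coloured points the 3 Gusuibu wells, and the bars give the mean ± SD of each group. STAT3 lay at 373 to 533 CPM with Gusuibu, under the lowest DMSO well at 597 CPM, and VCAN at 2023 to 2294 CPM, over the highest DMSO well at 1748 CPM.

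HSPB1 (Entrez 3315), the small heat shock protein HSP27, had 4108, 4481 and 5157 CPM against 5222 to 9575 CPM (median 6996). No well overlapped, and the log2 fold change was -0.58 (SE 0.13, edgeR adjusted p = 0.012). SUMO3 (Entrez 6612), a small protein that is attached to other proteins as a modifier, had 3628, 2739.6 and 3772 CPM against 4022 to 6171 CPM (median 4629). It did not overlap either and fell by 0.52 (SE 0.13, edgeR adjusted p = 0.0187).

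YWHAE (Entrez 7531), a 14-3-3 adaptor of phosphorylated proteins, was the second most abundant gene of the DMSO wells. It had 45246, 46087 and 56470.3 CPM against 55865 to 71046 CPM (median 63716), a log2 fold change of -0.36 (SE 0.08, edgeR adjusted p = 0.0116). GNG5 (Entrez 2787), a G protein gamma subunit, had 7630.0, 6094 and 7906 CPM against 7672 to 11555 CPM (median 9476), a log2 fold change of -0.41 (SE 0.12, edgeR adjusted p = 0.0298). AXL (Entrez 558), a receptor tyrosine kinase, had 854, 717 and 1299.9 CPM against 944 to 1754 CPM (median 1561), a log2 fold change of -0.62 (SE 0.19, edgeR adjusted p = 0.0445). In YWHAE, GNG5 and AXL the third well lay inside the DMSO range and the first and second below it.

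The 14 genes that fell held a sum of 132271, 134805 and 165852 CPM in the Gusuibu wells and of 173254 to 209118 CPM (median 196818) with DMSO. The sum is a description, since these genes were chosen by their difference. All 14 had each of the 3 treated wells below the DMSO median. With well 2 left out, 13 of the 14 kept an unadjusted p under 0.05 with edgeR, all but AXL. In that fit 0 genes had an adjusted p under 0.05. The choice of the 14 genes by their p in these wells largely fixes the shared side and the kept unadjusted p. Since each gene is read against the total of a well, fewer cells that express a gene and less of its RNA per cell cannot be told apart.

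Of the genes that rose, VCAN (Entrez 1462), the large matrix proteoglycan versican, was the most even across wells. It had 2294, 2023 and 2024 CPM with Gusuibu and 661 to 1748 CPM (median 1310.1) with DMSO, and every treated well was above every DMSO well. The log2 fold change was 0.75 (SE 0.21, edgeR adjusted p = 0.0298), and it stayed between 0.68 and 0.78 without any 1 of the treated wells. Its exact permutation p was 0.00516.

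EREG (Entrez 2069), epiregulin, a ligand of the EGF receptor, had 13659, 12495 and 16728 CPM against 7314 to 12708 CPM (median 9722). Wells 1 and 3 were above all DMSO wells and well 2 above 15 of them. With TMM the log2 fold change was 0.53 (SE 0.12, edgeR adjusted p = 0.012), under the study's fold change criterion. The study itself lists EREG among the genes changed by Gusuibu. VEGFA (Entrez 7422), the vascular endothelial growth factor, had 5816, 9192 and 6947 CPM against 3996 to 7049 CPM (median 5047), a log2 fold change of 0.47 (SE 0.14, edgeR adjusted p = 0.0329). Its well 2 alone exceeded all DMSO wells, and without that well the log2 fold change was 0.27.

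The remaining 4 genes that rose were PTK2B, CAV2, PLCG1 and PIM1, and all of them were led by the second treated well. PTK2B (Entrez 2185), a focal adhesion kinase that responds to calcium, had 1067, 2407 and 1002 CPM against 343 to 1589 CPM (median 508). Its log2 fold change was 1.30 (SE 0.31, edgeR adjusted p = 0.0135) and 0.74 without well 2. CAV2 (Entrez 858), a coat protein of caveolae, had 1067, 2432 and 1044 CPM against 282 to 1705 CPM (median 616), a log2 fold change of 1.13 (SE 0.29, edgeR adjusted p = 0.0187) that was 0.58 without well 2. In both genes wells 1 and 3 were above 14 of the 16 DMSO wells.

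PLCG1 (Entrez 5335), a phospholipase that growth factor receptors activate, had 587, 1895 and 809.8 CPM against 157 to 925 CPM (median 372). PIM1 (Entrez 5292), a kinase gene induced by STAT signalling, had 213, 1664 and 703 CPM against 83.2 to 1007 CPM (median 321). The log2 fold changes were 1.40 for both (edgeR adjusted p = 0.0187 and 0.0262), and without well 2 they were 0.75 and 0.57. PIM1 was the only 1 of the 21 genes with an exact permutation p over 0.05 (0.0712) and the only 1 with a treated well on the other side of the DMSO median, well 1.

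**Figure D3:**
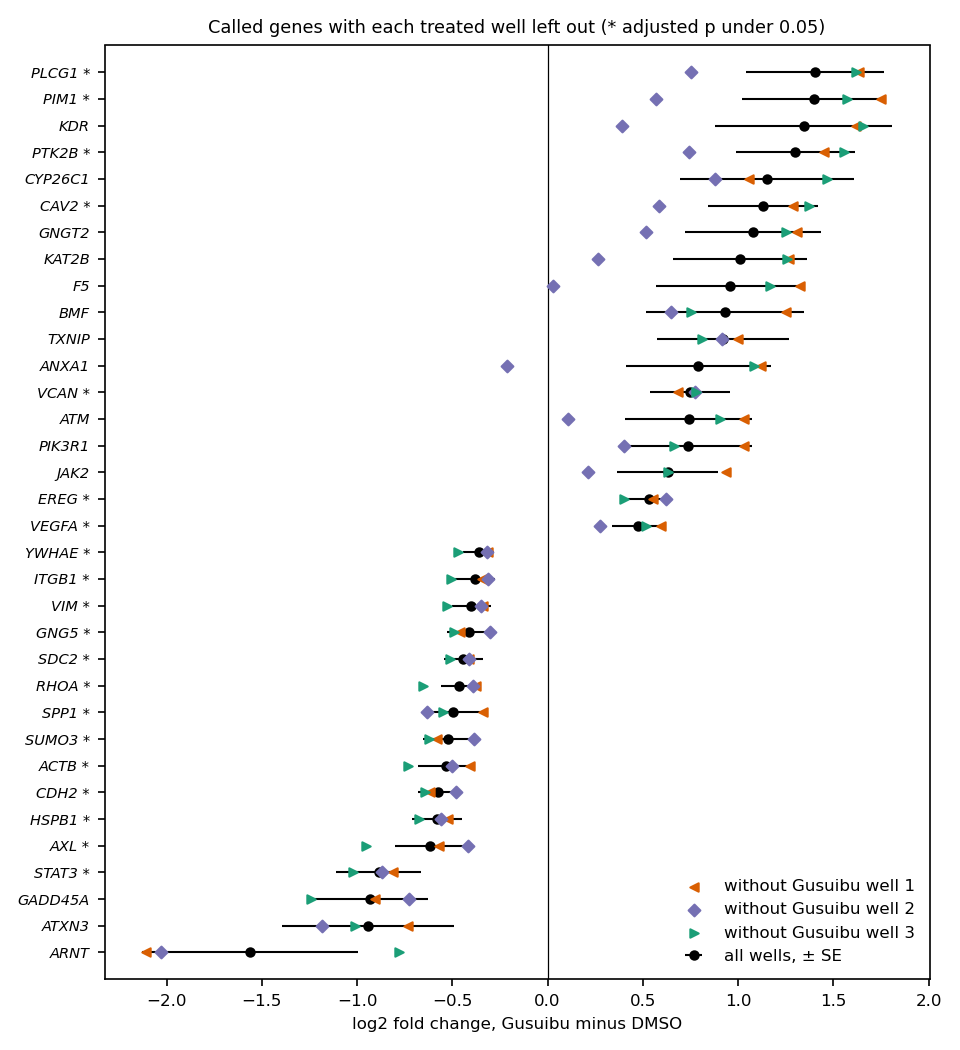
Log2 fold change of 34 of the 35 genes called by either rule; black points are the value from all wells with its SE, and coloured marks the value with 1 Gusuibu well left out, with an asterisk at genes with an adjusted p under 0.05. The genes that fell at an adjusted p under 0.05 stay between -1.02 and -0.30, while many of the genes that rose move towards 0 without well 2, F5 to 0.03 and ANXA1 to -0.21.

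In 12 of the 16 genes called higher by the study's criteria, Gusuibu well 2 was the highest treated well and stood above all DMSO wells: PLCG1, PIM1, KDR, PTK2B, CAV2, GNGT2, KAT2B, F5, BMF, ANXA1, ATM and JAK2. These genes were grouped after their values were seen, and the choice fixes that well 2 has the highest sum. Their summed level was 10298 CPM in well 1, 36921 CPM in well 2 and 16664 CPM in well 3, against 5439 to 26735 CPM (median 10189.7) with DMSO. Well 3 was above the DMSO median in 12 of the 12 genes and well 1 in 6, with all values of well 3 and 10 of those of well 1 inside the DMSO range.

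The same genes were high in a control well. DMSO well 14 was the highest of the 16 DMSO wells in 9 of the 12 genes and among the 2 highest in 11, and it held the highest sum. With all wells the log2 fold changes of the 12 genes were 0.63 to 1.40. The choice of these genes by Gusuibu well 2 fixes that their values drop without it. Without that well the log2 fold changes were -0.21 to 0.75, and 0 of the 12 had an unadjusted p under 0.05 or met the study's criteria with edgeR. Without DMSO well 14 all 12 met them.

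**Figure D4:**
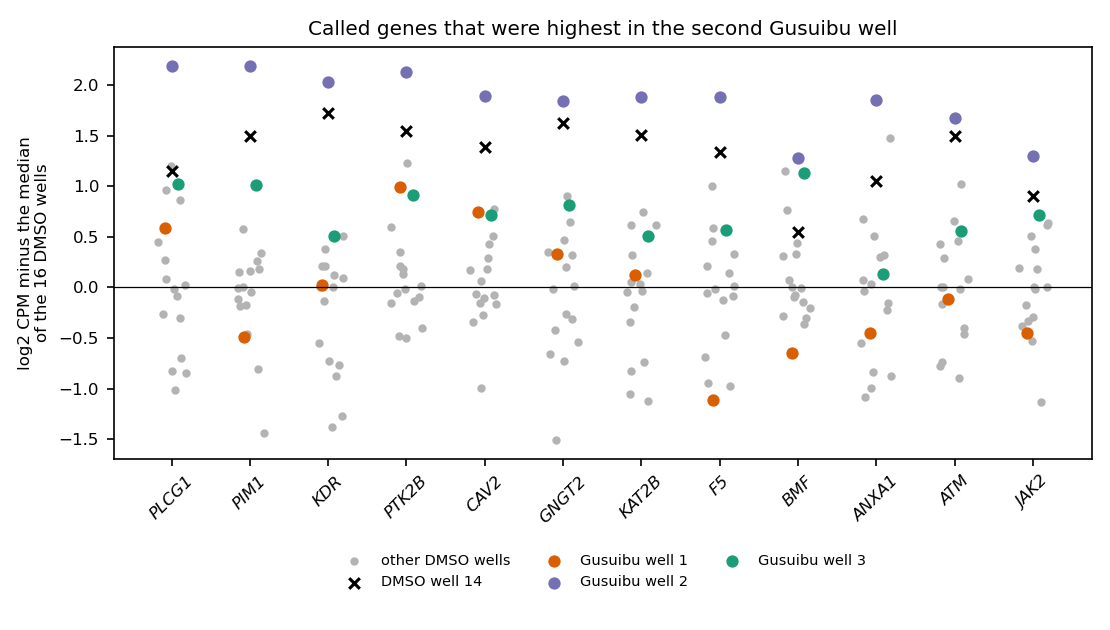
Log2 CPM minus the median of the 16 DMSO wells (vertical axis) for the 12 called genes that were highest in the second Gusuibu well; grey points are DMSO wells, the crosses DMSO well 14, and coloured points the Gusuibu wells. Gusuibu well 2 is at the top in every gene by the choice of the genes. DMSO well 14 is the highest DMSO well in 9 of 12, and Gusuibu well 1 is below 0 in 6.

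Among those 12, ANXA1 (Entrez 301), a phospholipid-binding protein that limits inflammation, had 1120.5, 5761 and 1705 CPM against 708 to 4439 CPM (median 1556). JAK2 (Entrez 3717), the kinase that phosphorylates STAT proteins, had 1867, 6375 and 4262 CPM against 1143 to 4843 CPM (median 2566). ATM (Entrez 472), the kinase that senses DNA breaks, had 1921, 6759 and 3089.9 CPM against 1097 to 5967 CPM (median 2086). In all 3 genes well 1 lay below the DMSO median and well 2 above all other wells. Their edgeR adjusted p-values were 0.284, 0.202 and 0.241, and those of the other 5 genes that met only the study's criteria (GNGT2, KDR, KAT2B, F5 and BMF) were 0.083 to 0.236.

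KAT2B (Entrez 8850), a histone acetyltransferase and coactivator, had 1067, 3738 and 1406 CPM against 416 to 2867 CPM (median 975). KDR (Entrez 3791), the main VEGF receptor, had 4, 40 and 15 counts, or 213, 1024 and 319.6 CPM, against 45.7 to 814 CPM (median 209). GNGT2, a G protein gamma subunit, had 960.4, 2842 and 1364 CPM against 229 to 2441 CPM (median 753), and F5, coagulation factor V, 160.1, 1664 and 639 CPM against 183 to 1124 CPM (median 412). F5 was thus below every DMSO well in well 1 and above every DMSO well in well 2. BMF, which promotes apoptosis, followed the same order by CPM, with 53.4, 358 and 320 CPM against 77.2 to 324 CPM with DMSO. Its treated counts were 1, 14 and 15.

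The other 4 genes called higher by the study's criteria were VCAN and the following 3. TXNIP (Entrez 10628), the inhibitor of thioredoxin, had 373, 461 and 511 CPM against 80.9 to 504 CPM (median 232). Its wells exceeded 14, 15 and 16 DMSO wells, its log2 fold change was 0.92 (SE 0.35, edgeR adjusted p = 0.136), and it was 0.81 or more with each treated well left out. CYP26C1 (Entrez 340665), an enzyme that breaks down retinoic acid, had only 7, 16 and 9 counts, or 373, 409.7 and 192 CPM against 24.9 to 434 CPM (edgeR adjusted p = 0.178). PIK3R1 (Entrez 5295), a regulatory subunit of PI3K, had 267, 1127 and 874 CPM against 186 to 1201 CPM (median 432), so that well 1 was above 1 DMSO well and wells 2 and 3 above 15 each (edgeR adjusted p = 0.244).

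Of the 6 genes called lower by these criteria, HSPB1, AXL and STAT3 also passed the adjusted test and 3 did not. CDH2, at a fold of 0.671, was just short of the criterion, and HSPB1, at 0.669, just within it. GADD45A (Entrez 1647), a gene of growth arrest after DNA damage, had 320.1, 256 and 448 CPM against 319.9 to 959 CPM (median 712), a log2 fold change of -0.93 (SE 0.31, edgeR adjusted p = 0.0797). ARNT (Entrez 405), the partner of the hypoxia factors and of the dioxin receptor, had 3, 4 and 0 counts against 4 to 13 counts, a log2 fold change of -1.56 (SE 0.57, edgeR adjusted p = 0.117). It was -0.78 without well 3, where the count was 0. ATXN3 (Entrez 4287), a deubiquitinating enzyme, had 1, 7 and 7 counts against 4 to 24 (edgeR adjusted p = 0.284).

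The agreement between wells was described in several ways. Over the 218 genes, the deviation of a Gusuibu well from the DMSO mean on the log2 CPM scale had an SD of 0.60, 0.66 and 0.42 in wells 1, 2 and 3. The same SD of a DMSO well against the other DMSO wells was 0.35 to 0.58 (median 0.41), highest in well 14. Well 3 was thus close to a middle DMSO well in this measure, and wells 1 and 2 lay beyond the highest DMSO well. Across the genes, the deviations of wells 2 and 3 had a Pearson r of 0.49, those of wells 1 and 2 of 0.16 and those of wells 1 and 3 of 0.14. Deviations from a shared mean can correlate without any treatment: for the 120 pairs of DMSO wells, each pair read against the mean of the other DMSO wells, r was -0.51 to 0.50 (median 0.07). Of these pairs 33 had a higher r than Gusuibu wells 1 and 2, 38 than wells 1 and 3, and 1 than wells 2 and 3. These are descriptions over 218 genes, which are not independent replicates.

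Well 1 was above all DMSO wells in 24 genes and below all of them in 47, well 2 in 24 and 27, and well 3 in 17 and 12. A DMSO well was above all other DMSO wells in 7 to 26 genes (median 11.5) and below them in 5 to 26 (median 13.5). The 3 treated wells lay on 1 side of the DMSO median in 94 of the 218 genes (43.1%), above it in 36 and below it in 58. In the 21 genes with an adjusted call this held for 20, and in the 22 genes called by the study's criteria for 15, shares that the choice of these genes largely fixes. Well 1, with 18177 counts, was the shallowest of the 19 wells, and the part of its depth in these counts was not tested.

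The lists of pathway genes were read beside the 218 genes, of which 9.63% had an adjusted call and whose median log2 fold change was -0.01. Of the 218, 103 had a fitted log2 fold change above 0. In the list of EGF ligands, receptors and RAS, all 5 measured members had a fitted log2 fold change above 0 (median 0.26), and EREG alone of them passed the test. EGFR (Entrez 1956), the receptor itself, had 4695, 4327 and 5349 CPM against 2208 to 4959 CPM (median 3697), a log2 fold change of 0.38 (SE 0.17, edgeR adjusted p = 0.267). The VEGF receptor 2 list had 54 measured members, 3 of which rose (VEGFA, PTK2B and PLCG1) and 2 of which fell (HSPB1 and AXL). That is a share close to that of the 218 genes, and the median of the list was -0.05, or 0.01 with RLE normalization.

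Among the 12 measured genes of the matrix and proteoglycan list, VCAN rose and SDC2 and SPP1 fell, and the median was -0.29. FN1, fibronectin, a member of this list, had 47541, 45422 and 56960.4 CPM against 32467 to 53228 CPM (median 40055; edgeR adjusted p = 0.128); it is named here after its values were seen. In the integrin list 1 of 4 fell, ITGB1, with a median of -0.32. All 5 measured chaperones had a fitted log2 fold change below 0 with TMM, RLE and total count scaling, with a median of -0.39 with TMM, and only HSPB1 passed the test. Of the 6 measured 14-3-3 genes, YWHAE passed, 5 had a value below 0 under each scaling and the median was -0.24. SUMO3 was the only call among the 5 genes of the SUMO list (median -0.35).

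In the JAK-STAT list of 10 measured genes, 2 fell, among them STAT3, and PIM1 rose, with a median of 0.13. IL6 (Entrez 3569), the cytokine that signals through STAT3, had 68189.6, 47905 and 48692 CPM against 32826 to 52782 CPM (median 41559.9). Well 1 alone was above all DMSO wells, and the log2 fold change of 0.37 (SE 0.12) did not pass the adjusted test (edgeR adjusted p = 0.083). None of the 9 measured genes of the cytokine list was called (median 0.13). The list of PI3K and AKT had no adjusted call among 10 genes (median 0.05), nor did the BCL2 family among 7 (median 0.05).

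The list of cell cycle control had no adjusted call among 24 genes (median 0.03), and the FOXO list had none among 29 (median 0.08). Both lists hold GADD45A, and the FOXO list also holds TXNIP, KAT2B and ATXN3, which met only the study's criteria. In the redox list no member of 5 passed (median 0.08). HMOX1 (Entrez 3162), heme oxygenase 1, had 7577, 6452 and 7032 CPM against 4447 to 9209.7 CPM (median 5973), and all 3 wells lay inside the DMSO range (log2 fold change 0.17, edgeR adjusted p = 0.577).

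Hormone receptors were at the lower end of the panel. ESR2 (Entrez 2100), oestrogen receptor beta, had 3, 9 and 10 counts with Gusuibu and 0 to 18 with DMSO, a log2 fold change of 0.63 (SE 0.64, edgeR adjusted p = 0.656). ESR1 (Entrez 2099), oestrogen receptor alpha, had 0, 2 and 2 counts against 0 or 1, at or under the floor of 3 counts in all wells, so no fold change is given. A floor of 3 counts is 61.5 to 165 CPM in these wells, by the total count alone. It covers counting error only because the reads carry no molecular identifiers. Of the 8 measured nuclear receptors, 7 had a fitted log2 fold change above 0 (median 0.40), beside 103 of the 218 genes, and none passed the test. Among 10 coregulators the median was 0.19, also without an adjusted call.

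The other lists were small. GNG5 fell among 6 G protein genes (median 0.02), and VEGFA rose among 4 genes of the hypoxia and dioxin receptor list (median 0.31). The lists of cytochromes P450 (3 genes, median -0.12), eicosanoid metabolism (2 genes, median -0.17) and immediate early factors (3 genes, median -0.12) had no adjusted call. LTA4H, the enzyme that makes leukotriene B4, had 2241, 2048 and 1960.5 CPM against 2015 to 3726 CPM (median 2827; edgeR adjusted p = 0.128). JUNB, an AP-1 subunit, had 587, 333 and 192 CPM against 132 to 692 CPM (median 445; edgeR adjusted p = 0.632).

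YWHAE, which fell, was described above, and the other 4 of the 5 most abundant genes did not pass the adjusted test. CALM3 (Entrez 808), a calmodulin gene, took 10.6% to 14.5% of the counts of each well and had 127362, 98652 and 104736 CPM against 102715 to 156322 CPM (median 129182). YWHAB, TXN and HSP90B1 had log2 fold changes of -0.26, -0.19 and -0.18 (edgeR adjusted p = 0.117, 0.221 and 0.321). The treated values of CALM3, YWHAB and TXN fell below the DMSO range in well 2 alone.

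Of the 38 genes that met the study's criteria over the whole panel, 16 had a mean count under 5, and 15 of these were higher. In 9 of the 16 no well had more than 3 counts: 8 of them, ESR1, SOX2, IRF4, TP73, FOXO1, CYP1B1, PON1 and PROC, had 0 to 2 counts in each of the 19 wells. Those with more were POMC with 6, 15 and 12 counts against 0 to 11, MTARC1 with 1, 12 and 8 against 1 to 7, HGF with 1, 6 and 4 against 0 to 3, SHC2 with 1, 3 and 7 against 0 to 3, TNFRSF1A with 1, 5 and 7 against 0 to 6, and ALB with 0, 5 and 3 against 0 to 3. RXRA, the only lower one, had 0, 5 and 2 counts against 2 to 11.

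The effect of Gusuibu was set against those of the other herbs in 1 edgeR fit of all 57 wells, in which each herb is read against its own DMSO wells. Of the 412 genes, 27 (6.55%) differed from Roucongrong and 23 (5.58%) from Yinyanghuo at an adjusted p under 0.05. Of these, 21 and 22 had a mean count of 5 or more in the wells of the Gusuibu set, and the rest rest on fewer counts. Herb and set cannot be told apart here, since each herb was tested in 1 set only. Of the 21 genes with an adjusted call for Gusuibu, 9 differed from Roucongrong and 2 from Yinyanghuo, and VCAN and HSPB1 differed from both.

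VCAN had a log2 fold change of 0.77 with Gusuibu, -0.98 with Roucongrong and -1.69 with Yinyanghuo in this fit. The differences were 1.76 (SE 0.33, edgeR adjusted p = 0.000352) and 2.46 (SE 0.40, edgeR adjusted p = 7.33e-06), and both kept an adjusted p under 0.05 without any 1 of the Gusuibu wells. HSPB1 had -0.56, 0.26 and 0.21, and its differences of -0.82 and -0.77 (edgeR adjusted p = 0.0383 and 0.0422) each kept the call in 1 of the 3 fits with a Gusuibu well left out. Its direction stayed the same in all of them.

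**Figure D5:**
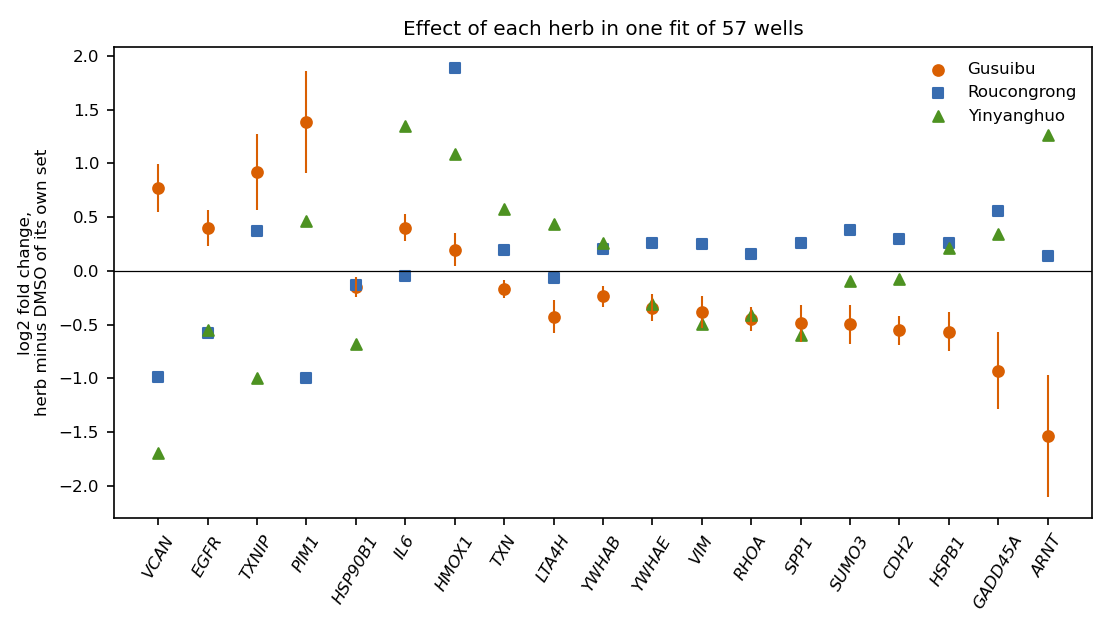
Log2 fold change of each herb against the DMSO wells of its own set, from 1 fit of 57 wells. The genes are the named ones in which Gusuibu differed from another herb. ESR1, at or under 3 counts in all wells of the Gusuibu set, also differed from Roucongrong and is not drawn. Bars are the SE of the Gusuibu value. VCAN is 0.77 with Gusuibu and -0.98 and -1.69 with the other herbs, while HMOX1 is 0.20 with Gusuibu and 1.88 and 1.09 with the others.

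Against Roucongrong, the other genes with a Gusuibu call that differed were CDH2, RHOA, SUMO3, YWHAE, PIM1, SPP1 and VIM. CDH2 differed by -0.85 (SE 0.18, edgeR adjusted p = 0.00263) and RHOA by -0.61 (SE 0.15, edgeR adjusted p = 0.0135), and both kept the call without any 1 of the Gusuibu wells. With a Gusuibu well left out, SUMO3 and YWHAE (edgeR adjusted p = 0.0302 and 0.0379) kept it in 2 of 3 fits, and PIM1, SPP1 and VIM (0.0477 each) in 1 of 3. For RHOA, VIM, SPP1 and YWHAE the Yinyanghuo values were -0.41, -0.49, -0.60 and -0.31, beside Gusuibu values of -0.45, -0.38, -0.49 and -0.34. The 4 differences from Yinyanghuo were -0.04 (SE 0.15), 0.11 (SE 0.20), 0.11 (SE 0.24) and -0.03 (SE 0.17) and did not pass the test.

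Genes without an adjusted call for Gusuibu also differed between the herbs. HMOX1 differed by -1.69 from Roucongrong and by -0.89 from Yinyanghuo on the log2 scale, and IL6 by -0.94 from Yinyanghuo (edgeR adjusted p = 0.000316). EGFR was higher than with either herb, by 0.98 and 0.95 (edgeR adjusted p = 0.0204 and 0.0162). TXN differed by -0.36 and -0.74, and TXNIP by 1.91 from Yinyanghuo (edgeR adjusted p = 0.0476). ARNT differed from Yinyanghuo by -2.80 (edgeR adjusted p = 0.00926), on counts of 3, 4 and 0 in the Gusuibu wells. YWHAB differed by -0.44 and -0.49 from Roucongrong and Yinyanghuo, GADD45A by -1.48 from Roucongrong (edgeR adjusted p = 0.0477), and LTA4H and HSP90B1 by -0.86 and 0.53 from Yinyanghuo. With a Gusuibu well left out, HMOX1 kept both calls and IL6 its call in 3 of 3 fits, while GADD45A and TXNIP kept theirs in 0 of 3. The calls of EGFR, TXN, YWHAB, ARNT, LTA4H and HSP90B1 were kept in 1 to 3 of 3.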

How the data were processed

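The authors filtered out reads with over 3 mismatched bases and deposited, for each well, the raw counts of each gene's joined probes, not normalized. The submitters' processing notes name Bowtie2 2.2.4 and DESeq2 1.22.1; the genome build is not given in the sources used here, and cross-reading of paralogs by the probes was not examined. All 412 Entrez identifiers matched a symbol. Wells were grouped by their labels, and none was left out. No pair of wells was identical, and the closest replicate wells had a chi-square of 1.75 per degree of freedom.

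The counts were tested with edgeR 4.0.16 in R 4.3.3 (quasi-likelihood F test, TMM, 402 genes with a nonzero total, Benjamini-Hochberg adjustment). CPM are counts scaled to a common total with the TMM factors, except in the marker sums and the floor of 3 counts. Those use the total count alone. Single genes also had a two-sided exact permutation test of mean log2 CPM (prior count 2) over 969 choices of 3 wells. The herbs were set against each other by an interaction term in a model of 6 groups with 412 genes. Each SE was taken as the absolute log2 fold change divided by the square root of the F statistic of its test. The scripts were tested on simulated data. Figures were drawn with matplotlib 3.10.9.

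Named genes were those with a mean count of 5 or more that had an adjusted p under 0.05 or met the study's criteria, up to 35, the 5 most abundant genes, 12 genes that the study discusses and, in lists without any of these, the member with the smallest p. Some genes that this rule names are not reported here. The members and lists were chosen with earlier results of these data known. Alternatives were RLE and total count scaling, DESeq2 1.42.0, a minimum mean count of 5, filterByExpr, a prior count of 0.5, leaving out each treated well, a block for the well number and all wells in 1 fit. Leaving out each DMSO well and DESeq2 with the block or without Gusuibu well 2 were added after the data were seen.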

Additional observations from a re-analysis of the deposited data

How the results depend on the processing

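The study's criteria called 38 genes, and 21 with DESeq2, 19 with a minimum mean count of 5, 20 with filterByExpr, 22 with the replicate block and 24 with all wells in 1 fit. Of the 22 calls with a mean count of 5 or more, all wells in 1 fit gave 14. The 21 adjusted calls became 0 with the replicate block (37 genes at an unadjusted p under 0.05 with edgeR) and 2, both lower, with all wells in 1 fit; with the total count, lower calls were 8. Added after the data were seen: DESeq2 without Gusuibu well 2, with 11 calls by the study's criteria, 9 of them at a mean count of 5 or more, and 8 adjusted calls, 2 higher and 6 lower, and DESeq2 with the block, with 2, 2 and 0.

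With each Gusuibu well left out, the study's criteria called 27 to 42 genes (10 to 28 at a mean count of 5 or more), and adjusted calls were 0 to 17, with 0 to 6 higher and 0 to 13 lower. With each DMSO well left out they were 30 to 45 (18 to 26), 19 to 27, 7 to 11 and 12 to 16. The differences from Roucongrong, 27 genes, became 10 to 16 without a Gusuibu well and 1 with the block, and those from Yinyanghuo, 23 genes, became 10 to 20 and 2. Lower calls by the study's criteria were 7, and 3 with RLE, the total count or DESeq2. A prior count of 0.5 did not move the exact tests by over 1.5 times.

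The labels do not say whether the well numbers pair the wells. Deviations of same-numbered Gusuibu and DMSO wells correlated at 0.09, -0.03 and -0.26 over 218 genes, and 1 of 3 correlated best with its own number. These values cannot decide whether the wells were paired, since the treated deviations also hold any effect of the extract. The block reads the 3 Gusuibu wells against 3 DMSO wells, so it has fewer samples.

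Directions of single genes turned in these fits: ANXA1 without Gusuibu well 2 (-0.21, range -0.21 to 1.12 over the wells left out, and -0.26 with DESeq2), F5 with DESeq2 without that well (-0.067), ESR2 with the block (-0.64, DESeq2 -0.51) and JUNB with the block (0.20, DESeq2 0.26); the cause was not tested. Depth limits genes with few counts most, and well 1 above all.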
